A study of Rattus norvegicus with 6 samples.

Results

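Collagens are the structural proteins of joint tissue, and the genes described here are those that encode their chains. Every non-control probe was taken whose gene name in the scanner files is Col, a number, a and a number. This gave 35 genes on 54 probes, of 16416 named genes and 41012 probes on the array. By textbook class, 11 genes (20 probes) encode fibrillar chains, 5 genes (7 probes) basement membrane chains, 8 genes (12 probes) FACIT chains, which sit on the surface of fibrils, and 11 genes (15 probes) other types. Probes for Col26a1 and Col6a4 carry other names in the files and fell outside the rule.

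Gene expression was measured in synovial tissue, the lining of the joint, from the hind ankles of 8-week-old male rats made arthritic with adjuvant. Both groups were given 0.1 ml of Freund's complete adjuvant by intraperitoneal injection each day for 18 days, which provokes joint inflammation. The arthritis group (arrays arthritis 1 to 3) then received saline and the triptolide group (triptolide 1 to 3) received triptolide, a diterpenoid from the thunder god vine, at 0.4 mg/kg, each daily for 14 days. The question was how triptolide alters expression in arthritic synovium. No healthy or unarthritic group was analysed here, the strain is not given in the labels, and nothing in the labels says that the 3 replicates of a group came from separate animals. The p-values therefore reflect only how these samples vary, and that variation may be partly technical.

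Collagen chains assemble into a helix in which glycine recurs at regular steps, so that the coding sequence repeats a glycine codon. Fibrillar types I, III and V form the tensile fibrils of the joint capsule and synovial stroma, types II and XI are known from cartilage, type IV forms the sheets beneath vessel and muscle cells, and FACIT types bind to fibril surfaces. Inside the cell the chains are hydroxylated and folded, and outside it they are trimmed by proteases, crosslinked by lysyl oxidases and covered by small proteoglycans. In arthritis, synovial fibroblasts are known as a main source of new collagen and of the enzymes that degrade it.

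The repeat can be read directly in probes that lie in the helical part. A search for triplets beginning with GG, the start of every glycine codon, that recur every 9 bases at least 5 times found 2 of the 54 collagen probes (3.7%) and 5 of the 40958 other probes (0.0122%). Those 2 are shown from 5′ to 3′ with the recurring triplets in capitals, since they are the probes in which the shared structure of the family is visible. The Col4a5 probe lies at chrX:36958983-36959042 and the Col9a1 probe spans chr9:22976816-22982770 across an intron, both on rat build rn4, on the minus and the plus strand respectively.
Col4a5: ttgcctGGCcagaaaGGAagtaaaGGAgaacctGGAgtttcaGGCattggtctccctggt
Col9a1: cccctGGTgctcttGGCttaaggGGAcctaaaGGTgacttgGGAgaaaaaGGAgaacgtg

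Levels are log2 of the processed spot intensity minus the log2 75th percentile of the same array, so that 0 is the 75th percentile and levels of different probes are not comparable. Testing required a probe to be called well above background by the scanner software on 3 or more of the 6 arrays, which held for 25777 probes. Of the collagens, 44 probes of 29 genes passed: 10 fibrillar, 4 basement membrane, 6 FACIT and 9 other genes. Col10a1, Col20a1, Col24a1, Col4a3, Col6a6 and Col9a3 did not pass and are given no difference. Where a gene has several probes, the one with the highest mean over all 6 arrays stands for it unless stated.

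Between 59.6% and 65.1% of an array's non-control spots were well above background, the 75th percentile of intensity ran from 270.1 on triptolide 1 to 447.9 on triptolide 3, and no spot was saturated. All 12 synovial fibroblast markers were tested, and their average relative to their own 6-array mean was 0.29, -0.62 and 0.38 on arthritis 1 to 3 and -0.02, -0.16 and 0.12 on triptolide 1 to 3. Arthritis 2 was the lowest, and triptolide 2 held a mixture. Prg4, the lubricant of the synovial lining, had levels of 6.81, 4.27 and 7.37 on arthritis 1 to 3 and 6.55, 3.52 and 6.74 on triptolide 1 to 3, lowest on triptolide 2 and arthritis 2, whereas Clu and Pi16, of the same list, were highest of all arrays on triptolide 2 at 6.72 and 0.45. The 13 tested of 15 skeletal muscle markers averaged 8.23 above their own 6-array mean on arthritis 2, against -4.08 to 1.71 on the other arrays. The 7 Schwann and nerve markers averaged 2.45 above it on triptolide 2, against -1.23 to 0.22 elsewhere, and the 7 tested smooth muscle and pericyte markers 1.96 there, against -1.16 to 0.33. limma's array weights over all tested probes were 0.230 for arthritis 2 and 0.282 for triptolide 2, against 1.00 to 2.61 for the other 4. The part of these differences in the collagen values was not tested, and the differences without those arrays are given after those on all 6. In whole tissue, fewer cells of a type and less RNA per cell cannot be told apart.

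Most collagen genes had lower mean levels with triptolide, but no collagen gene passed the test after adjustment on all 6 arrays. Of the 29 tested genes, 22 (75.9%) had a lower mean in the triptolide group, where 44.2% of all 11748 tested genes did, and the median log2 difference, triptolide minus arthritis, was -0.21 for the collagens and 0.03 for all tested genes. The median was -0.42 for the fibrillar genes (9 of 10 lower), -0.30 for basement membrane (3 of 4), -0.24 for FACIT (5 of 6) and -0.04 for the others (5 of 9). In limma with Benjamini-Hochberg adjustment, 0 of 25777 probes passed an adjusted p of 0.05, and 835 (3.24%) had an unadjusted p under 0.05. Among the collagen genes 2 had an unadjusted p under 0.05, both lower (6.9% of 29, against 2.98% of all tested genes, and 0.987% for lower ones), and in 3 all arthritis arrays lay above all triptolide arrays (10.3%, against 3.76% of all tested genes). That count of 3 became 1 with quantile normalization. Counted by probe, 35 of 44 collagen probes were lower (46.1% of all tested probes were), 3 were lower at an unadjusted p under 0.05 (1.23% of all) and 1 was higher (2.01% of all).

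A log2 difference below -0.5 was found for 7 of the 29 collagen genes (24.1%, against 5.79% of all tested genes). They were Col22a1, Col11a1, Col11a2, Col12a1, Col5a3, Col5a2 and Col7a1. A difference above 0.5 was found for 2 (6.9%), Col6a5 and Col9a2, and the share of all tested genes above 0.5 is not given. Over the 18 other settings of the processing, 12 genes stayed lower in each setting that gave a value and 17 changed direction in at least 1. The 12 were Col22a1, Col11a1, Col12a1, Col5a3, Col5a2, Col5a1, Col7a1, Col4a1, Col4a2, Col3a1, Col16a1 and Col1a1. Some of the settings, the filters and the replicate block, cannot change a gene's difference. Using the skeletal muscle marker average as a covariate can change it only little, since the group means of that average lay close together. The slide block and slide 1 alone, described below, give the same differences. The share of all tested genes that kept a direction was not counted.

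**Figure D1:**
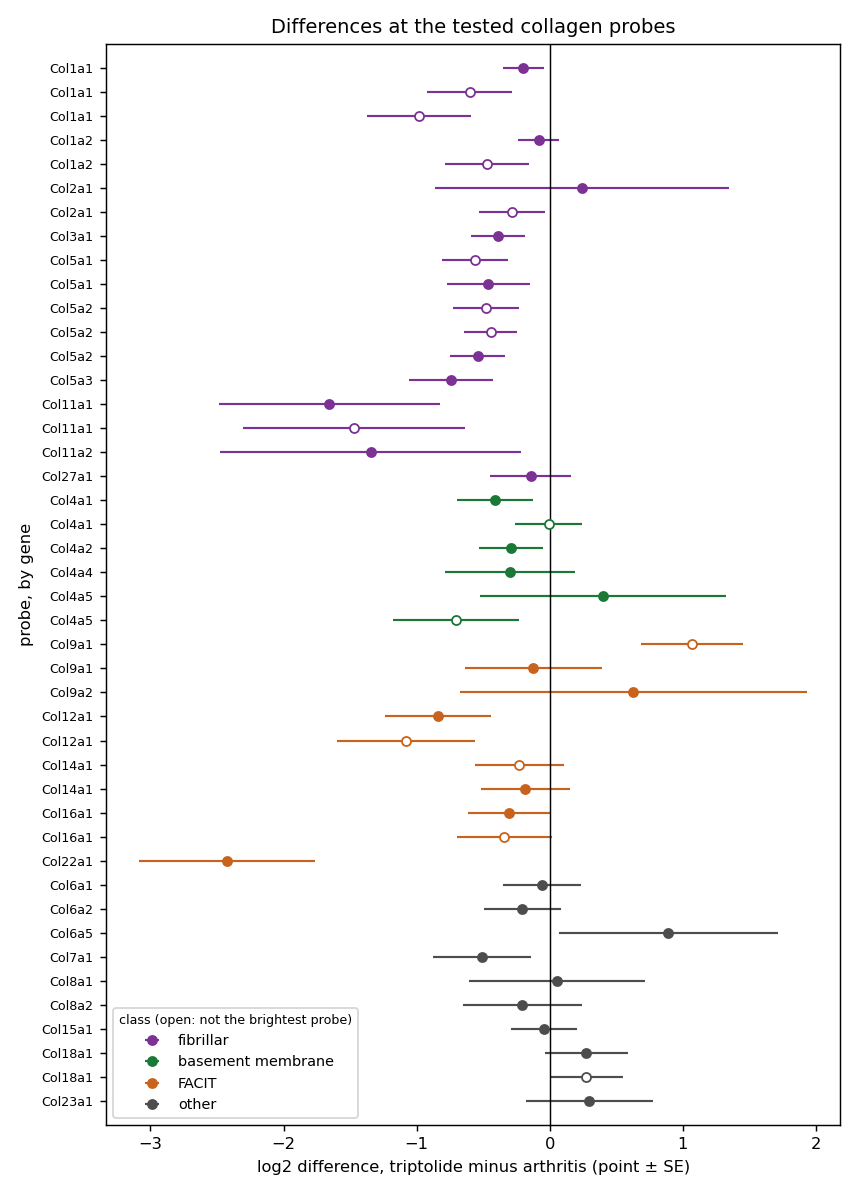
Log2 difference, triptolide minus arthritis, with its standard error (x axis) at each of the 44 tested collagen probes (y axis, by gene), coloured by class; filled points are the brightest probe of a gene and open points its other probes. Points left of the line at 0 are lower with triptolide: Col22a1 lies farthest left at -2.42, and most fibrillar probes lie between 0 and -1.

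The arrays did not move as 2 blocks. The highest level was on arthritis 1 for 14 of the 29 collagen genes (48.3%, against 11% of all tested genes) and on triptolide 2 for 9 (31%, against 23.6%). The lowest was on triptolide 1 for 11 (37.9%, against 15.5%), on triptolide 3 for 10 (34.5%, against 8.16%) and on arthritis 2 for 6 (20.7%, against 39.6%). Triptolide 2 was the highest of the 3 triptolide arrays for 25 of 29 collagen genes, and the share over all tested genes was not counted. Averaged over the collagen genes, the triptolide group held 2 low arrays and 1 high one. Relative to each gene's 6-array mean, the collagen genes averaged 0.23, 0.07 and 0.14 on arthritis 1 to 3 and -0.52, 0.46 and -0.39 on triptolide 1 to 3. Their medians were 0.35, -0.14 and 0.15 and then -0.53, 0.31 and -0.26, so that arthritis 2 lay below 0 by the median.

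**Figure D2:**
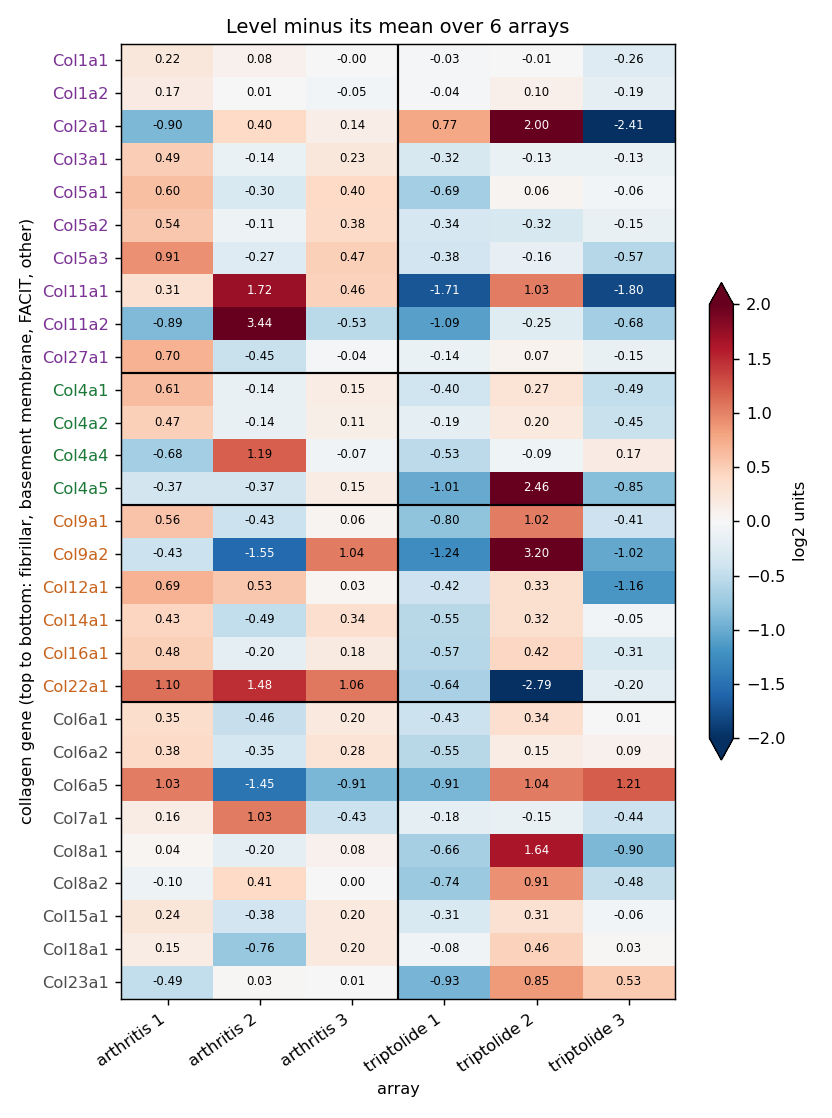
Level of each of the 29 tested collagen genes (rows, grouped by class) minus its mean over the 6 arrays, in log2 units, on each array (columns); colour is capped at 2 and -2, and the cells print the values. The triptolide 1 and triptolide 3 columns are mostly blue, whereas triptolide 2 and arthritis 1 are mostly red.

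When arthritis 2 and triptolide 2 were left out, a choice made after seeing the data, 26 of 29 collagen genes (89.7%) were lower, against 49.7% of all tested genes. Then 17 (58.6%) were lower at an unadjusted p under 0.05, against 5.93% of all tested genes, and 1, Col11a1, passed adjustment over all probes in limma (log2 difference -2.14, SE 0.12, adjusted p = 0.0487), as did 0.136% of all tested genes. Since triptolide 2 held the highest triptolide level of most collagen genes, leaving it out lowers the triptolide mean of those genes by itself, and 2 arrays a group remain.

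Sizes moved by more than 1.5 times, or changed sign, without those arrays for all but 4 of the 29 genes (Col11a1, Col12a1, Col1a1 and Col5a2). The fibrillar log2 differences became -1.17 for Col5a3, -0.87 for Col5a1, -0.59 for Col3a1, -0.48 for Col27a1, -0.44 for Col2a1 and -0.17 for both Col1a2 and Col11a2. Those of basement membrane genes became -0.82 for Col4a1 and Col4a5, -0.61 for Col4a2 and 0.19 for Col4a4. Among FACIT genes Col22a1 gave -1.50, Col9a2 -1.43, Col9a1 -0.91, Col16a1 -0.77 and Col14a1 -0.68. Most of these are larger than on all 6 arrays, with Col22a1, Col11a2 and Col4a4 smaller. Of the other types, Col8a1 gave -0.84, Col6a2 and Col8a2 -0.56, Col6a1 -0.49, Col15a1 -0.40, Col18a1 -0.20, Col7a1 -0.17, Col6a5 0.09 and Col23a1 0.04.

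Slide here means the arrays that share a scan date in the file headers, since no slide number was read. It was largely confounded with treatment. Slide 1 held all 3 arthritis arrays and triptolide 1, slide 2 triptolide 2 and 3. Within slide 1, triptolide 1 was lower than the arthritis mean for 27 of 29 collagen genes (93.1%, against 47.4% of all tested genes), 3 of them at an unadjusted p under 0.05 (10.3%, against 4.99%), with a median of -0.64. That comparison rests on 1 treated array, assumed to vary like the arthritis arrays.

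Type XXII collagen, a FACIT chain found in mouse at the junction of muscle and tendon, had the largest log2 difference of the 29 tested genes on all 6 arrays. Col11a1 was larger within slide 1 (-2.53 against -1.85), with array weights (-2.02 against -1.60), without triptolide 2 (-2.58 against -1.63) and without both arthritis 2 and triptolide 2 (-2.14 against -1.50). The single Col22a1 probe lies at rn4 chr7, minus strand. Its first 30 bases (chr7:109509432-109509461) identify which transcript was measured, with no part singled out.
Col22a1: gagagactggaagcaagaagaatttgcagc
Col22a1 had levels of 1.28, 1.66 and 1.24 on arthritis 1 to 3 and of -0.46, -2.61 and -0.03 on triptolide 1 to 3. The arthritis arrays lay within 0.42 of each other and above all the triptolide arrays, which spread over 2.59. The log2 difference was -2.42 (SE 0.66), a mean 5.37-fold higher in arthritis, with an unadjusted p of 0.00956 and an adjusted p of 0.994 in limma. It stayed between -2.93 and -1.50 over the 18 other settings. Of these, the filters, the replicate block and the mean of its single probe cannot change it.

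Tendon and muscle markers were read beside Col22a1, since it is known from where those tissues meet. The tendon markers tested were 3 of 5 listed, all lower with triptolide. Thbs4, a matrix protein of tendon and muscle, had levels of 4.70, 6.56 and 5.30 with arthritis and 4.51, 4.10 and 3.56 with triptolide, with no overlap (log2 difference -1.46, SE 0.50, unadjusted p = 0.0262 in limma). Tnmd, a membrane protein of mature tendon cells, had -0.57, 1.88 and 0.42 against -0.58, -1.88 and -0.37 (log2 difference -1.52, SE 0.69). Fmod, a fibril-binding proteoglycan, had 4.05, 7.17 and 5.23 against 4.39, 4.9999 and 3.33 (log2 difference -1.24, SE 0.83). All 3 were highest on arthritis 2. Tnmd was lowest on triptolide 2, as Col22a1 was, while Thbs4 and Fmod were lowest on triptolide 3. The skeletal muscle markers averaged -3.71, 8.23 and -4.08 relative to their 6-array mean on arthritis 1 to 3 and 0.80, -2.95 and 1.71 on triptolide 1 to 3. The Col22a1 difference was -2.40 with that average as a covariate and -2.29 without arthritis 2. The group means of that average lay close together, so the covariate could change the difference only little. The part of tendon content in the Col22a1 difference was not tested.

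The other FACIT genes were mixed. Col12a1, whose chain lies on fibrils of tendon and other dense tissue, had levels of -2.58, -2.74 and -3.24 with arthritis and -3.70, -2.95 and -4.44 with triptolide. Triptolide 2 lay among the arthritis arrays. The log2 difference was -0.84 (SE 0.40, unadjusted p = 0.0784 in limma). The second Col12a1 probe, which spans nearly the same stretch, gave -1.08 (SE 0.52). Col14a1, a similar chain, had levels of -0.11, -1.03 and -0.19 against -1.08, -0.22 and -0.58, which overlap over most of their range (log2 difference -0.19, SE 0.33). Col16a1, found around fibrils and basement membranes, differed by -0.30 (SE 0.31).

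Type IX collagen, the FACIT of cartilage fibrils, moved with triptolide 2. Col9a2 had levels of -2.40, -3.52 and -0.93 with arthritis and -3.20, 1.23 and -2.99 with triptolide. Triptolide 2 alone stood high, and the log2 difference was 0.63 (SE 1.30) with triptolide 2 and -0.81 without it. The 2 probes of Col9a1 disagreed. The brighter, printed above, gave -0.12 (SE 0.51). The dimmer had levels of -3.11, -2.87 and -2.77 against -2.59, -1.06 and -1.88, with no overlap and higher with triptolide (log2 difference 1.07, SE 0.38, unadjusted p = 0.0302, adjusted p = 0.994 in limma).

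**Figure D3:**
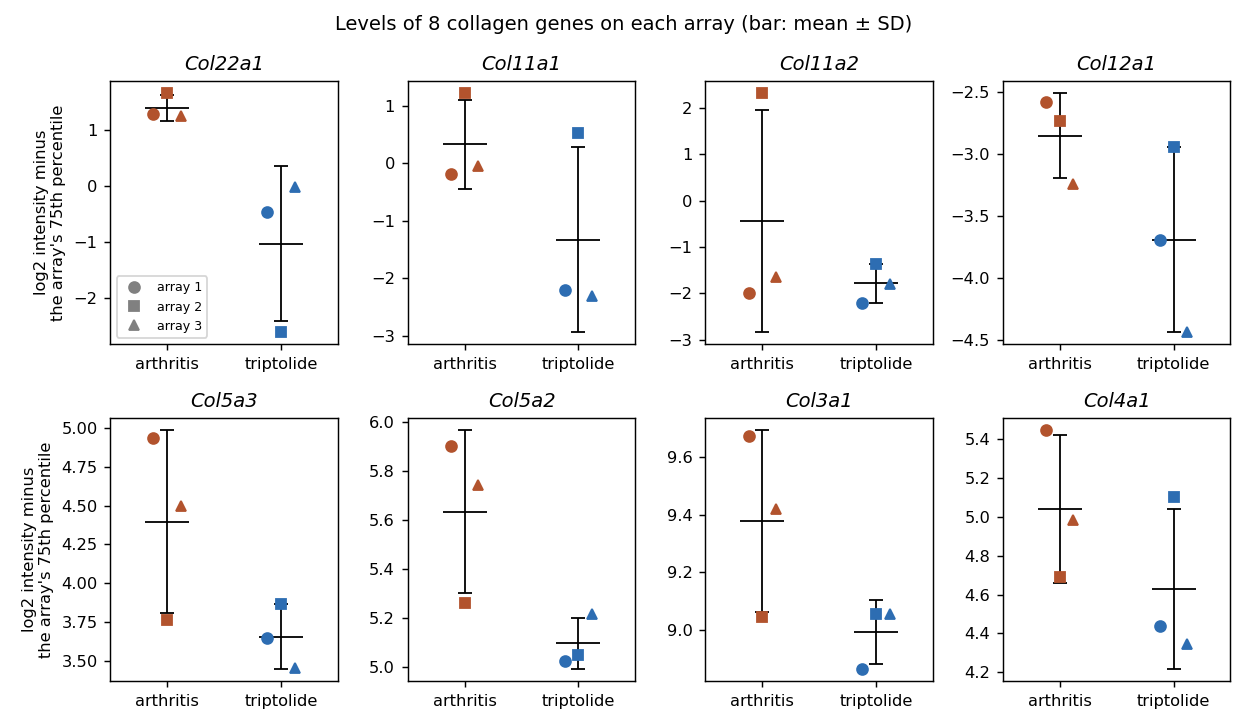
Level of 8 collagen genes (y axis, log2 intensity minus the array's 75th percentile, a scale of its own in each panel) on the 3 arthritis and 3 triptolide arrays; symbols number the arrays, and bars are the mean ± SD. Groups are apart for Col22a1 and Col5a2 and overlap for the other 6, in which the second array of a group is often the one that lies with the other group.

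Among the fibrillar chains, type V was lower at each of its 6 probes. Those of Col5a2 lie within 1 short stretch and some overlap, so they are not independent readings. Type V collagen is a minor component of type I fibrils that sets their diameter, with chains encoded by Col5a1, Col5a2 and Col5a3. Col5a2 had levels of 5.90, 5.26 and 5.74 with arthritis and 5.02, 5.05 and 5.22 with triptolide. The groups did not overlap, though arthritis 2 and triptolide 3 were 0.04 apart. The log2 difference was -0.54 (SE 0.21, unadjusted p = 0.0385, adjusted p = 0.994 in limma), and the other Col5a2 probes gave -0.48 (SE 0.25) and -0.44 (SE 0.20).

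Col5a3 had levels of 4.93, 3.76 and 4.50 with arthritis and 3.64, 3.87 and 3.45 with triptolide. Arthritis 2 lay below triptolide 2, and the other arrays were apart (log2 difference -0.74, SE 0.32, unadjusted p = 0.0556 in limma). Col5a1 had levels of 4.29, 3.40 and 4.09 against 3.01, 3.75 and 3.64, again with arthritis 2 among the triptolide arrays, and differed by -0.46 (SE 0.31). Its dimmer probe gave -0.56 (SE 0.25, unadjusted p = 0.0632 in limma).

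Type III collagen, the fine fibril of loose and newly laid tissue, had a single probe. Col3a1 had levels of 9.67, 9.05 and 9.42 with arthritis and 8.86, 9.06 and 9.06 with triptolide, so that only arthritis 2 reached the triptolide range. The log2 difference was -0.39 (SE 0.20, unadjusted p = 0.100 in limma), a mean 1.31-fold higher in arthritis.

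Type I collagen, the main fibril of the joint capsule and of bone, gave a size that depended on the probe. The 3 Col1a1 probes start within 274 bases of each other on rn4 chromosome 10, plus strand, and the upstream and middle probes overlap at their ends. The first 30 bases of each, which do not overlap, show which stretch it reads, listed from the most 5′ to the most 3′ (chr10:83637903-83637932, chr10:83637956-83637985 and chr10:83638177-83638206).
Col1a1 upstream: aatacaaaaccaccaagacctcccgcctgc
Col1a1 middle: gacattggtgccccagaccaggaattcgga
Col1a1 downstream: aacttagtttttatctttgaccaactgaac
The downstream Col1a1 probe, the brightest on average, had levels of 7.50, 7.36 and 7.27 with arthritis and 7.25, 7.27 and 7.02 with triptolide. The groups did not overlap, though arthritis 3 and triptolide 2 were only 0.0073 apart, and the log2 difference was -0.20 (SE 0.15). The upstream probe had levels of 7.15, 6.46 and 7.56 against 5.41, 6.49 and 6.31, with triptolide 1 far below the rest. It differed by -0.98 (SE 0.39, unadjusted p = 0.0444, adjusted p = 0.994 in limma), and the middle probe by -0.60 (SE 0.32).

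Col1a2, which encodes the partner chain, showed the same split. Its downstream probe had levels of 8.11, 7.95 and 7.89 with arthritis and 7.91, 8.04 and 7.76 with triptolide, a log2 difference of -0.08 (SE 0.15). The probe 2905 bases upstream in the genome had 6.80, 6.37 and 6.81 against 5.57, 6.67 and 6.34, a difference of -0.47 (SE 0.31), again with triptolide 1 lowest. For comparison, 2603 genes were taken with several probes well above background on all 6 arrays, leaving out genes whose probes lie close together. In these, the upstream probe minus the downstream one, relative to its 6-array mean, had a median of 0.00 on triptolide 1. The median was -0.04 to 0.04 on all arrays, and the spread around it is not given. The log2 difference of the upstream probe was the lower one in 41.5% of these genes and in 5 of 8 collagen genes (62.5%). Upstream minus downstream, it ran from -0.78 for Col1a1 to 1.19 for Col9a1. The cause of the split was not tested.

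**Figure D4:**
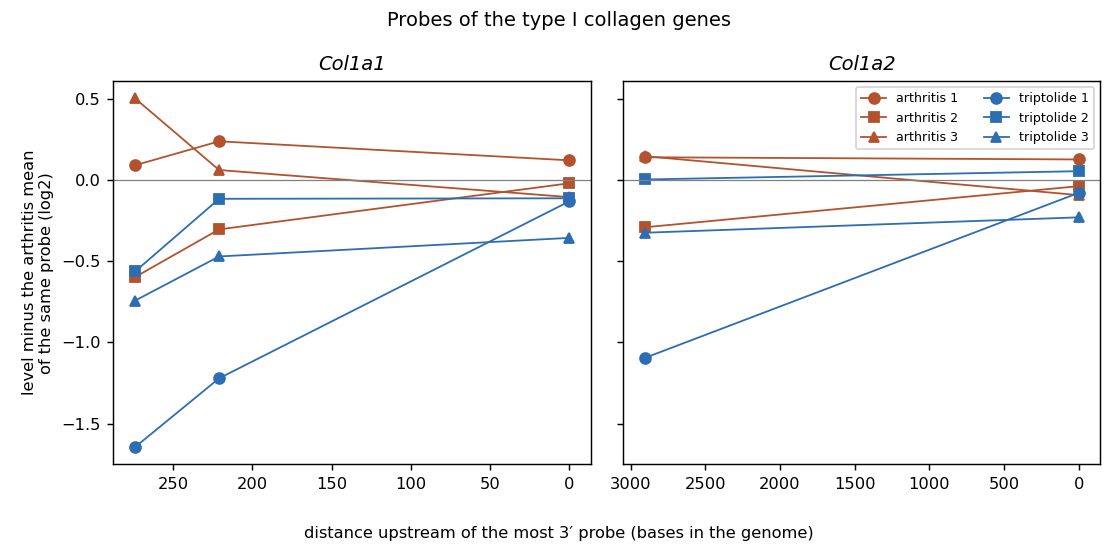
Level on each array minus the arthritis mean of the same probe (y axis, log2) for the 3 probes of Col1a1 and the 2 of Col1a2, against their distance upstream of the most 3′ probe in genomic bases (x axis, 3′ to the right); lines join the probes of 1 array. At the most 3′ probe all 6 arrays lie close together, while triptolide 1 lies far below the others at the upstream probes.

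The cartilage-type fibrillar chains varied widely between arrays of a group. Col11a1, which encodes a chain of type XI collagen that also joins type V, had levels of -0.19, 1.22 and -0.04 with arthritis and -2.21, 0.53 and -2.30 with triptolide. Triptolide 2 lay among the arthritis arrays, and triptolide 1 and 3 lay below all of them. The log2 difference was -1.66 (SE 0.83, unadjusted p = 0.0915, adjusted p = 0.994 in limma), a second probe gave -1.47 (SE 0.83), and the third was not well above background on any array. Only this dim probe stands among the 167 rows of the authors' deposited table of log2 values, where its log2 difference was -0.46.

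Col11a2 had levels of -2.00, 2.33 and -1.64 with arthritis and -2.20, -1.36 and -1.79 with triptolide. Arthritis 2 alone stood high, the array on which muscle and tendon markers were also highest, and the log2 difference of -1.34 (SE 1.13) became 0.04 without it. Col2a1, the main cartilage chain, gave 0.24 (SE 1.10) at one probe and -0.28 (SE 0.25) at the other, with triptolide levels of -2.32, -1.08 and -5.50 at the first. Col27a1, a fibrillar chain known from developing cartilage, differed by -0.14 (SE 0.30).

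Chondrocyte and cartilage markers were read beside these chains and type IX. Of 11 listed, 7 were tested, 4 higher and 3 lower, with a median log2 difference of 0.03, and their average relative to the 6-array mean ran from -0.21 to 0.53 with arthritis and from -0.78 to 0.50 with triptolide. Sox9, the transcription factor of cartilage, had levels of -1.41, -0.34 and -1.57 with arthritis and -2.29, -0.37 and -2.29 with triptolide, with the same high and low arrays as Col11a1. Cnmd, a cartilage membrane protein, had 0.26, -3.00 and 0.61 against -2.14, 3.49 and -3.39, highest on triptolide 2 and among the lowest on arthritis 2, as Col9a2 was. The rest of the list was split. Ucma was also highest on triptolide 2, at 1.79, whereas Chad and Snorc were lowest there, at -5.34 and -1.90. Of the triptolide arrays, triptolide 2 was the highest for Comp and the lowest for Matn1. The part of cartilage content in the differences of these collagens was not tested, and the markers were named after their values were seen.

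In the basement membrane class, the chains of the common type IV network had lower means whose size depended on the arrays. Col4a1 had levels of 5.45, 4.69 and 4.98 with arthritis and 4.44, 5.10 and 4.35 with triptolide, and Col4a2, its partner chain, had 1.41, 0.80 and 1.05 against 0.75, 1.14 and 0.49. The 6 arrays stood in the same order for both, from arthritis 1 through triptolide 2 down to triptolide 3. The log2 differences were -0.41 (SE 0.29) and -0.29 (SE 0.24), and the dimmer Col4a1 probe gave -0.01 (SE 0.25). Without arthritis 2 and triptolide 2 they were -0.82 (SE 0.20, unadjusted p = 0.0121) and -0.61 (SE 0.19, unadjusted p = 0.0291) in limma. Endothelial markers were highest on triptolide 2, where 9 averaged 0.81 above their 6-array mean, against -0.41 to 0.05 elsewhere.

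These genes lie head to head, with 76 bases between their annotated starts in RefSeq on rat assembly GRCr8 (chr16:84885521-84885596). The stretch is shown on the plus strand, on which Col4a1 reads, because both genes start from it, with the GC box, searched as GGGCGG or its reverse CCGCCC, in capitals.
Col4a1 and Col4a2: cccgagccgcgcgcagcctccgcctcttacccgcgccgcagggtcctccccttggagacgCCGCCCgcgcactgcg
RefSeq promoters were found for 27 of the 35 genes, 30 promoters in all. In the 250 bases before the start, on either strand, GGGCGG stood in 63.3% of them and in 30.5% of all 33469 promoters, CCAAT in 30% and 34%, and TATAAA in 6.67% and 12.9%. These are matches of letters and not sites.

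Col4a5, a chain of the specialised type IV networks, was again a case of 1 array and 2 probes. Its brighter probe had levels of -2.48, -2.48 and -1.96 with arthritis and -3.12, 0.35 and -2.96 with triptolide, high on triptolide 2 alone (log2 difference 0.40, SE 0.92, and -0.73 without that array). The probe printed above had -3.31, -3.92 and -3.07 against -3.25, -4.12 and -5.04, a difference of -0.71 (SE 0.48). Col4a4 was well above background on 3 of the 6 arrays and differed by -0.30 (SE 0.49).

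The remaining types showed little common direction. Type VI collagen forms beaded filaments around cells. Col6a1 had levels of 5.44, 4.63 and 5.29 with arthritis and 4.66, 5.43 and 5.09 with triptolide, and Col6a2 1.99, 1.25 and 1.89 against 1.06, 1.76 and 1.70. The groups overlapped, with arthritis 2 and triptolide 1 the lowest for both, and the log2 differences were -0.06 (SE 0.30) and -0.21 (SE 0.29). Col6a5, another type VI chain, had 2.13, -0.35 and 0.19 against 0.19, 2.14 and 2.31. It was high on 1 arthritis and 2 triptolide arrays (log2 difference 0.89, SE 0.82).

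Type VIII collagen, a network found around vessels, followed triptolide 2 in both chains. Col8a1 had levels of 0.30, 0.06 and 0.34 with arthritis and -0.40, 1.90 and -0.64 with triptolide. Its log2 difference was 0.05 (SE 0.66) with triptolide 2 and -0.75 without it. Col8a2 had -2.40, -1.90 and -2.31 against -3.05, -1.39 and -2.79, a difference of -0.21 (SE 0.45). In both, triptolide 1 and 3 lay below all arthritis arrays and triptolide 2 above them.

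The multiplexins Col18a1 and Col15a1, which carry heparan or chondroitin sulphate chains in basement membrane zones, overlapped between the groups. Col18a1, the source of endostatin, had levels of 3.79, 2.88 and 3.85 with arthritis and 3.57, 4.11 and 3.67 with triptolide, with arthritis 2 the lowest (log2 difference 0.28, SE 0.31, and -0.04 without arthritis 2). Col15a1 differed by -0.04 (SE 0.25). Col7a1, which forms anchoring fibrils, had -4.10, -3.22 and -4.68 against -4.43, -4.40 and -4.69 and was well above background on 3 arthritis arrays and 1 triptolide array (log2 difference -0.51, SE 0.37). Col23a1, a transmembrane chain, differed by 0.30 (SE 0.48).

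Genes that act on collagen were read from lists of their own. Of 18 tested genes of procollagen modification and folding, 9 were higher and 9 lower with a median log2 difference of 0.00, and none had an unadjusted p under 0.05 in limma. The smallest p values were those of P4ha3, a prolyl hydroxylase subunit, at -0.59 (SE 0.24, unadjusted p = 0.0503), and of P3h4, a partner of the lysyl and prolyl hydroxylases, at -0.47 (SE 0.21, unadjusted p = 0.0629). Of 10 genes of cleavage and crosslinking, 7 were lower, with a median of -0.22. Lox, a lysyl oxidase that crosslinks fibrils, had levels of 2.96, 3.25 and 3.51 with arthritis and 2.59, 2.93 and 2.64 with triptolide, with no overlap (log2 difference -0.52, SE 0.20, unadjusted p = 0.0387, limma). Loxl4, of the same family, was higher, at -4.18, -4.11 and -5.06 against -3.57, -3.01 and -3.46 (log2 difference 1.10, SE 0.31, unadjusted p = 0.0106, limma). Its levels were near background, and only 2 of the arthritis arrays were well above it.

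Of 14 fibril-associated proteoglycans and glycoproteins, 10 were lower, with a median of -0.27. The smallest p values belonged to Aspn and Thbs2. Aspn, a small leucine-rich protein that binds collagen, had levels of 2.69, 2.56 and 2.93 with arthritis and 2.04, 1.68 and 2.09 with triptolide (log2 difference -0.79, SE 0.19, unadjusted p = 0.00491, limma). Thbs2, a matricellular protein whose loss disturbs fibrils in mice, had 3.40, 3.01 and 3.25 against 1.83, 2.87 and 2.27 (log2 difference -0.89, SE 0.29, unadjusted p = 0.0198, limma). Neither overlapped between groups, and both adjusted p values were 0.994. Kera was the other member of this list at an unadjusted p under 0.05, named after its values were seen, and had no triptolide array well above background.

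The medians of the other lists lay between -0.11 and 0.03. Of 11 basement membrane partners 7 were lower (median -0.09), with Nid1, which links laminin to type IV collagen, at -0.53 (SE 0.21, unadjusted p = 0.0415, limma) and Lamb3, a laminin chain, at 0.24 (SE 0.33). Of 6 collagen receptors 4 were lower (median -0.11), with Itga10 at -0.59 (SE 0.30) and Itga2, both integrin subunits that bind collagen, at -0.44 (SE 0.26). Of 5 collagen-degrading proteases 3 were lower (median -0.10). Mmp9, a gelatinase, had levels of 0.69, -0.12 and 0.68 against 0.92, 0.71 and 1.38, higher with no overlap (log2 difference 0.59, SE 0.30), and Mmp13, a collagenase, gave -0.31 (SE 0.54). Of 11 TGF-beta and fibrogenic regulators 6 were higher (median 0.03), with the receptor Tgfbr2 at 0.49 (SE 0.20, unadjusted p = 0.0450, limma) and the signal mediator Smad4 at -0.28 (SE 0.17). The 12 synovial fibroblast markers were split 7 higher and 5 lower, with a median of 0.03.

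**Figure D5:**
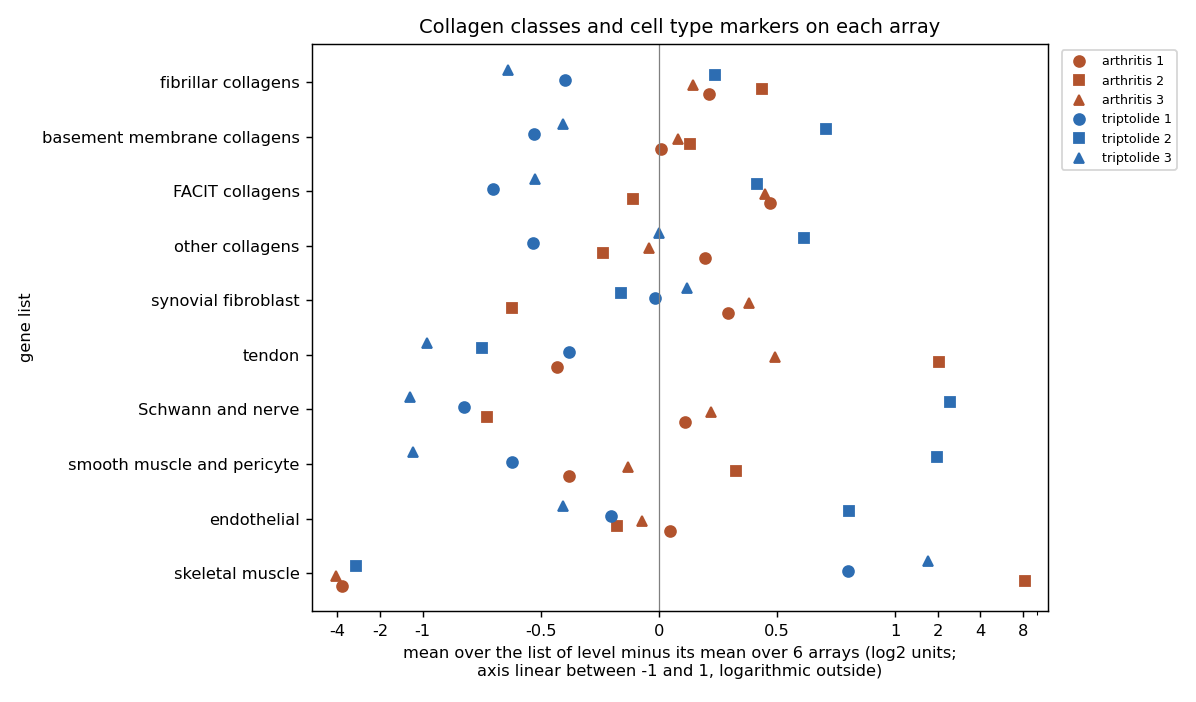
Mean over each gene list of the level minus its 6-array mean (x axis, log2 units, linear between -1 and 1 and logarithmic outside) for the 4 collagen classes and 6 cell type marker lists (y axis), with 1 symbol per array. Triptolide 1 and triptolide 3 lie left of 0 in the collagen classes (triptolide 3 at 0 for the other types) and triptolide 2 right of 0 in all 4, and triptolide 2 also stands far right for nerve and smooth muscle markers and arthritis 2 for skeletal muscle.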

How the data were processed

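The deposited per-array files give each spot's intensity, linear in scale, after background subtraction within the array by the authors' software and with no scaling between arrays. That software was Agilent Feature Extraction, in version 10.7.3.1 per the file headers and 9.1 per the submitters' processing notes. The headers place probes on rn4. Per the labels, 0.5 ug of RNA was labelled with Cy3. A deposited table of log2 values has 167 rows, of which 160 matched a probe, and the column medians were 4.94, 5.54 and 4.93 (the arthritis arrays in order) and 4.68, 4.74 and 4.84 (the triptolide arrays). Across matched probes each column correlated at 0.9998 to 0.9999 with log2 intensity from the same array, so its scale and direction are known, and its normalization is not given in the sources used here. It was used only for the single collagen probe it holds.

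Control and outlier spots were left out, log2 intensity was centred on each array's 75th percentile, and spots of a probe were averaged. Triptolide was compared with arthritis by lmFit and eBayes in limma 3.58.1 (R 4.3.3), with Benjamini-Hochberg adjustment over all 25777 probes tested, and the procedure was tested on simulated data. With 3 arrays a group, their number limits the precision. Slide was inferred from the scan date in the headers. All arthritis arrays and triptolide 1 shared slide 1 (scan 1). The remaining triptolide arrays were on slide 2 (scan 2). Gene names were updated through RefSeq's table for GRCr8, used for names, promoters and which genes are neighbours. The members and lists were chosen with earlier results of these data known. All collagen genes could be named. Those with an unadjusted p under 0.05, groups apart, a difference past 0.5, or of the commonest types of a class are given on all arrays, with up to 2 genes of smallest p per related list. Alternatives covered normexp with an offset of 50, quantile normalization, the filter, slide and replicate blocks, array weights, a muscle covariate, averaging the probes of a gene, and leaving out arrays.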

Additional observations from a re-analysis of the deposited data

How the results depend on the processing

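With 3 arrays a group, slide nearly confounded with treatment and arthritis 2 and triptolide 2 standing apart, the direction held in each setting that gave a value for 12 collagen genes, all lower, and the median over all collagen genes stayed below 0 (-0.64 to -0.10). Probes at or near background limit Col4a4, Col7a1, Col2a1 and Col23a1. The Col12a1 difference of -0.84 was -0.40 with normexp and -0.32 with normexp and quantile normalization. No collagen gene passed adjustment in any setting except when arthritis 2 and triptolide 2 were left out (1 collagen gene, and 16 of all 11748 tested genes). The filters and the replicate block cannot change a gene's difference, and the muscle covariate, close in its group means, can change it only little. Slide 2 holds no arthritis array, so the slide block gives the same differences as slide 1 alone, and both rest on triptolide 1. There the collagen median was -0.64, and it was -0.59 without arthritis 2 and triptolide 2. In the same order the basement membrane median was -0.64 and -0.71 and the FACIT median -0.85 and -1.03. The FACIT median was also -0.83 with array weights, and the median of the other types was -0.47 within slide 1. Collagen genes at an unadjusted p under 0.05 numbered 4 with normexp, 1 with quantile normalization, 0 with the slide block and 11 with array weights. In the same order, 943, 825, 971 and 2591 of all 25777 tested probes were at that threshold, against 835 without these changes. The muscle covariate gave 4 collagen genes and 1594 probes. Leaving out arthritis 2 and triptolide 2 gave 17 collagen genes and 2880 probes. With the mean of the probes of a gene there was 1 collagen gene, and 717 of all 21779 genes and unnamed probes. Nothing in the labels pairs the same-numbered arrays of the groups. Over all tested probes, their deviations from the group means correlated at -0.16, -0.13 and 0.0008. With 3 arrays a group, these values cannot show whether the arrays were paired. With the replicate block, 4 collagen genes and 1066 of all tested probes had an unadjusted p under 0.05. Genes whose groups do not overlap numbered 1 with quantile normalization, from 3. The cause of these changes was not tested.

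Leaving out 1 array at a time gave 1 to 6 collagen genes at an unadjusted p under 0.05 and 0 past adjustment. There was 1 when arthritis 1 was left out, 5 for arthritis 2 and 6 for triptolide 2. In these settings 679, 863 and 1657 of all 25777 tested probes were at that threshold, against 835 on all 6 arrays. The medians then ran from -0.56 to -0.10 for all collagens, from -0.56 to -0.26 for fibrillar, from -0.56 to -0.11 for basement membrane, from -0.74 to -0.027 for FACIT and from -0.24 to 0.14 for other genes. The lowest collagen and FACIT medians, -0.56 and -0.74, came without triptolide 2. Genes that changed sign with 1 array left out ranged from -2.12 to 0.037 for Col11a2, -0.48 to 0.043 for Col14a1, -0.24 to 0.10 for Col15a1, -0.037 to 0.44 for Col18a1, -0.052 to 0.84 for Col23a1, -0.40 to 0.17 for Col27a1, -0.70 to 1.51 for Col2a1, -0.71 to 0.22 for Col4a4, -0.73 to 1.00 for Col4a5, -0.30 to 0.14 for Col6a1, -0.43 to 0.018 for Col6a2, -0.75 to 0.52 for Col8a1, -0.71 to 0.11 for Col8a2, -0.66 to 0.25 for Col9a1 and -0.81 to 1.40 for Col9a2.

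Other changes of sign were as follows. Within slide 1, and so with the slide block, Col23a1 gave -0.78, Col4a5 -0.81, Col6a5 -0.47, Col8a1 -0.63 and Col9a2 -0.92. With array weights, Col18a1 gave -0.10, Col2a1 -0.92, Col4a4 0.28, Col4a5 -0.53, Col8a1 -0.70 and Col9a2 -0.98. Without arthritis 2 and triptolide 2, Col18a1 gave -0.20, Col2a1 -0.44, Col4a4 0.19, Col4a5 -0.82, Col8a1 -0.84 and Col9a2 -1.43. With normexp, Col23a1 gave -0.0064 and Col8a1 -0.026, with normexp and quantile Col8a1 gave -0.016, and with quantile normalization Col1a2 gave 0.025. With the mean of its probes, Col2a1 gave -0.020, Col4a5 -0.15 and Col9a1 0.47.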
